A study of Drosophila melanogaster with 2 samples.

Results

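The lysozyme gene cluster of Drosophila melanogaster comprises LysB, LysC, LysD, LysE, LysP, LysS and LysX, which lie close together on chromosome arm 3L. The 7 genes were picked by name, with earlier results of the same ablated-to-control comparison in view. Each was represented by 1 probe printed once, so they account for 7 of 14593 gene probes and 7 of 13137 genes on the array. Because that comparison was known when the genes were chosen, their values are given as a description, without a test.

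RNA from whole female larvae of the third instar was hybridised to 2 two-colour arrays. Each array compared ablated with control larvae directly, with Cy5 on the ablated RNA of replicate 1 and Cy3 on that of replicate 2. Ablated larvae were rnGAL4,UASegr,tubGAL80[ts]/+. The rotund (rn) driver places eiger, a tumour necrosis factor ligand that causes cell death, in the wing pouch, the part of the wing disc that later forms the blade. Controls carried TM6, a balancer of chromosome 3, with the Tubby marker (Tb[1]) and tubGAL80, and their labels list no driver or eiger transgene. Both groups carried a GAL80 transgene and spent 24 h at 30 °C. The protocol text and the design text disagree on whether GAL80 blocks the driver at 18 or at 30 °C, and the design text (cell death at 30 °C) was followed. The array titles give day 6. Nothing in the labels says that the replicates came from separate cultures.

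Lysozymes of this family cut the peptidoglycan wall of bacteria. In Drosophila most genes of the cluster are known for expression in the gut, where the enzymes help to digest bacteria taken up with food, and less for defence in the blood. LysB, LysC, LysD and LysE are closely similar copies expressed mainly in the midgut, LysS belongs to the larval gut, LysX to the midgut around metamorphosis and LysP to the adult salivary gland. The reference gene table (Release 6 plus ISO1 MT) lists LysC as a pseudogene next to LysD and the other 6 as protein-coding. The files hold no probe sequences, so how far the probes of the similar copies share targets was not tested, and the separate values of LysB, LysC, LysD and LysE are uncertain.

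Replicate 1 was the brighter array. Of 14785 gene spots, 38.1% (ablated) and 26.9% (control) exceeded the local background median by 2 SD on replicate 1, against 17.6% and 15% on replicate 2. Probes below that limit in all 4 channels were left out, which left 5971 genes. Across them the 2 arrays gave opposing log2 ratios (Pearson's r = -0.527, Spearman's rho = -0.23; genes are not independent replicates), so the direction of single genes is not settled by these arrays. The labels state the dyes and their direction was kept, and values with the sign of replicate 2 turned are given as well. The probes of egr and Tb had no channel above background. The brighter rn probe read 0.34 on replicate 1 and -0.95 on replicate 2. Its control channel on replicate 1 and its ablated channel on replicate 2 were under their limits. The other rn probe read -0.0865 on replicate 1, with both channels under their limits, and 0.17 on replicate 2, with both above. These genes thus gave no check of the labels.

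LysB, LysC, LysD and LysS gave spots above local background in at least 1 channel of both arrays, and their ablated-to-control ratios were below 1 on each after normalization. LysB stood at 3.73-fold, LysD at 2.80-fold, LysS at 2.00-fold and LysC at 1.91-fold higher in the control larvae as means over both arrays. The LysS mean rests on replicate 1: its log2 ratios of ablated to control were -1.87 there and -0.13 on replicate 2. The folds of LysB and LysC are not fixed in size, since their ablated channel was under the background limit on replicate 2, and the mean log2 ratio of LysB ran from -3.96 to -1.59 over processing settings. LysP was near its background limit, and LysE and LysX were below it in every channel. Log2 ratios below run as ablated over control after background correction and loess, with the SD between both arrays as error (n = 2).

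LysD, a midgut lysozyme, was measured above background in all 4 channels. Its spot median was 5417 in the ablated and 10026 in the control channel of replicate 1, over local backgrounds of 537 and 402 scanner units. On replicate 2 the ablated channel read 3334 and the control channel 7652, over backgrounds of 436 and 705. The control channel was the brighter one on both arrays, in Cy3 on replicate 1 and in Cy5 on replicate 2. At least 90% of the pixels of the spot lay over background by 2 SD in every channel, and no pixel was saturated. The log2 ratio was -1.63 on replicate 1 and -1.35 on replicate 2, a mean of -1.49 ± 0.20. This mean ranked 15 from the lowest among the 5971 genes.

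LysB, a further midgut copy, gave ablated and control spot medians of 2797 and 6707 on replicate 1, over backgrounds of 103 and 142. On replicate 2 they were 195 and 840, over backgrounds of 185 and 290. The ablated channel of replicate 2 was thus not above its background limit of 421, and 1% of its pixels exceeded background by 2 SD, against 70% in the control channel. The log2 ratios were -1.89 and -1.91, with a mean of -1.90 ± 0.00897 that ranked 5 from the lowest. How closely the arrays matched depended on the background step. With no background correction the ratios were -1.94 and -1.89. With plain subtraction the ratios were -1.97 and -5.95, since only 10 scanner units remained in the ablated channel of replicate 2. With a normexp offset of 200, chosen after seeing the data, they were -1.81 and -1.37. The size of the ratio on replicate 2 is therefore not fixed by these data, while the control channel was the brighter one under each setting run with the labelled direction.

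LysC, listed as a pseudogene, gave ablated and control medians of 4061 and 3472 on replicate 1 and of 736 and 1634 on replicate 2. The ablated channel of replicate 2 was below its limit of 1087. Before normalization the arrays therefore ran opposite ways for this probe. After loess the log2 ratios were -0.45 and -1.42 (-0.94 ± 0.68), and in the authors' deposited table, which is not centred, they were 0.226 and -1.794. The first of these deposited values lies below 0.498, the median of all gene spots in that column.

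LysS, a larval gut lysozyme, was above background in all 4 channels. Its ablated and control medians were 4005 and 9191 on replicate 1 and 2214 and 2228 on replicate 2. A difference was thus seen on replicate 1 only: the log2 ratios were -1.87 and -0.13 (-0.9997 ± 1.23), so the mean was smaller than the spread between arrays. With print-tip loess and with median centring the replicate 2 ratio lay at 0.12 and 0.000763, on the other side of 0.

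**Figure D1:**
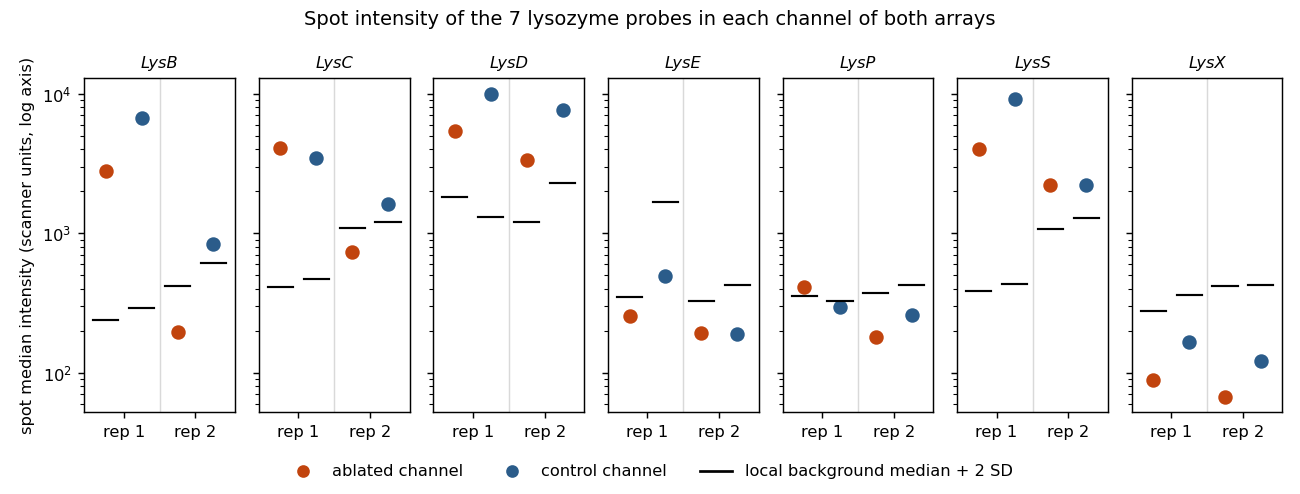
Median spot intensity (scanner units, log axis) of each lysozyme probe in the ablated and control channel of replicates 1 and 2, with a bar at the local background median plus 2 SD. LysD and LysS lie above the bar in 4 of 4 channels, LysB and LysC in 3, LysP in 1 and LysE and LysX in 0. Only points of 1 probe and 1 array should be compared.

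The remaining members were at or under the detection limit. LysP, the gene known from the adult salivary gland, exceeded its limit only in the ablated channel of replicate 1, with a spot median of 412 against a limit of 356. Its control channels read 297 and 259, and its ablated channel on replicate 2 read 180, all under their limits. The log2 ratios were -0.00597 and -0.30 (-0.15 ± 0.21), within the spread between arrays. Since control RNA was not well above background on either array, the control level is only a bound, and no minimum fold could be given.

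LysE, the further midgut copy, read 255 and 494 in the ablated and control channels of replicate 1 and 193 and 189 on replicate 2. All were under their limits, which on replicate 1 reached 1669 in the control channel because the local background there varied widely (SD 747). LysX read 89 and 166 on replicate 1 and 67 and 121 on replicate 2, and on replicate 2 both channels were dimmer than their local background. Neither gene gives a difference between the groups.

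Of the 7 members, 5 passed the filter on dim probes: LysB, LysC, LysD, LysP and LysS. Their median log2 ratio was -1.63 on replicate 1, -1.35 on replicate 2 and -0.9997 as a mean over both, against 0.0162, 0.00569 and 0.00917 for all genes tested. Below 0 on both arrays were 5 of the 5, where 22.4% of all tested genes were; at least 2-fold lower on both were 2 of the 5, LysB and LysD, where 0.385% of all tested genes were. The genes were chosen on this contrast, so nothing is read from these counts. Among all 5971 genes limma called 0 at a Benjamini-Hochberg adjusted p of 0.05 (0%; lowest adjusted p 0.996), with 144 genes at an unadjusted p under 0.05.

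The values were also read with the sign of replicate 2 turned. Since all 5 tested members were below 0 on both arrays as labelled, turning 1 array leaves by construction 0 lower and 0 higher on both, and nothing is read from that count (26.1% and 27% of all tested genes). LysB averaged 0.00634, LysD -0.14, LysC 0.48, LysP 0.15 and LysS -0.87. In that reading limma called 515 genes (8.63%) at an adjusted p of 0.05, and 0 of the 5 members were among them. The mean values of LysB, LysC and LysD thus depend on the labelled dyes.

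**Figure D2:**
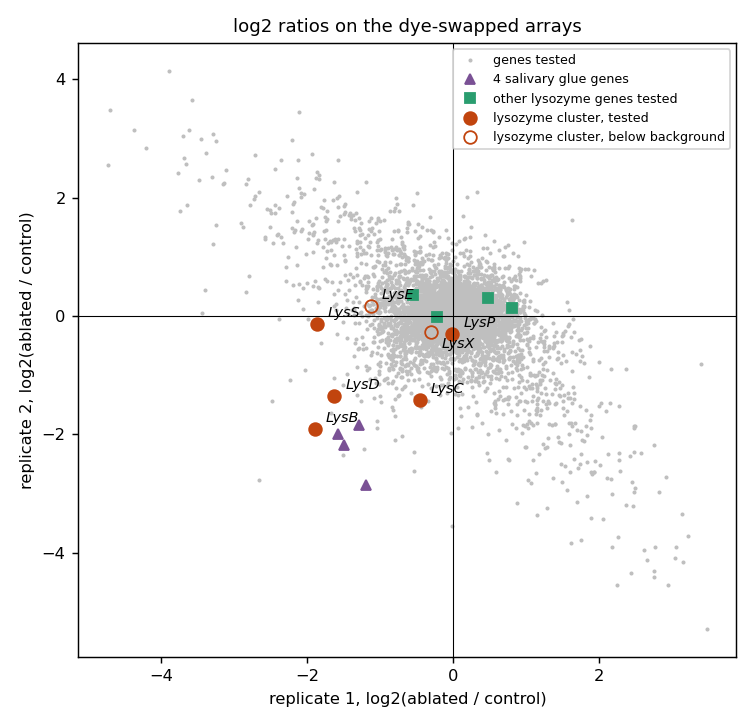
Log2 ratio of ablated to control larvae on replicate 1 (x axis) and replicate 2 (y axis) for the 5971 genes tested in grey, the lysozyme cluster in orange (open where no channel was above background), 4 tested lysozyme genes outside the cluster in green and 4 salivary glue genes in purple. Most genes far from the centre lie along the falling diagonal (r = -0.527), while LysB at -1.89 and -1.91 and LysD at -1.63 and -1.35 lie at the lower left.

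Among genes with signal in every channel, LysD lay at the low end on both arrays as labelled. Of 1196 genes whose probe was above background in all 4 channels, 2 were at least 2-fold lower in ablated larvae on both arrays, LysD and Andorra, which read -1.01 and -1.15. These were counted after their values had been seen, and the count holds for the labelled direction. With the sign of replicate 2 turned it was 58, with 0 members among them. Across these 1196 genes the arrays again ran against each other, with r = -0.61.

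The gene spots next to the members were also read. The LysB, LysC and LysD spots sat at column 11 and row 15 of blocks 8, 16 and 24, in separate print blocks. The 6 to 8 gene spots next to each member had median log2 ratios from -0.33, beside LysS, to 0.0416, beside LysD, on replicate 1. Beside LysC the median was -0.24 on that array, where LysC itself read -0.45. On replicate 2 they ran from -0.14, beside LysB, to 0.0752, beside LysE. For scale, 12 probes printed 17 times each had a median SD between copies of 0.178 on replicate 1 and 0.193 on replicate 2.

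The genes among and beside the lysozymes on 3L were read from the same arrays. Between LysX and LysB lie Aplip1, mwh, meep and CG9119 in the reference order. Of these only meep had a channel above background, with log2 ratios of 0.0841 and 0.14, and the other 3 gave no difference that can be used. The nearest tested genes on the LysX side were CG13912 at 0.48 ± 0.49 (0.82 on replicate 1 and 0.13 on replicate 2), bab1 at -0.00597 ± 0.19 and trio, whose brighter probe read 0.0741 ± 0.16. On the LysS side they were Rabex-5 at -0.0836 ± 0.0654, Ctr9 at 0.14 ± 0.31 and sturkopf at -0.16 ± 0.14. All 6 flanking means lay closer to 0 than those of LysB, LysC, LysD and LysS. Since the controls carry the TM6 balancer and the members lie on chromosome 3, an effect of the balancer chromosome and an effect of ablation cannot be told apart.

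**Figure D3:**
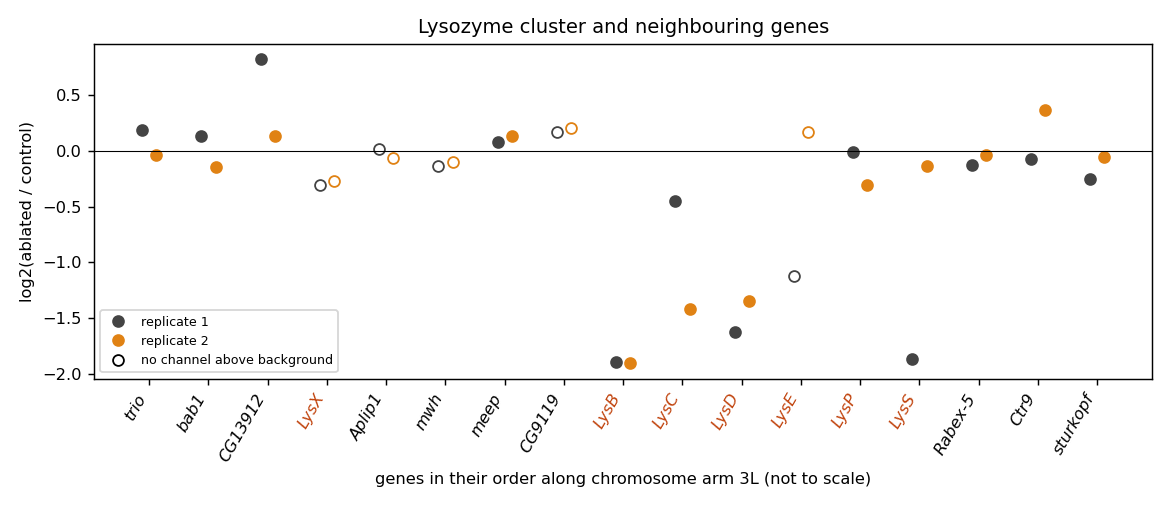
Log2 ratio of ablated to control larvae on replicates 1 and 2 for the lysozyme genes (orange names) and their neighbours, in reference order along chromosome arm 3L and not to scale. Open circles mark probes with no channel above background. LysB, LysC, LysD and LysS reach from -1.91 to -0.13, while the tested flanking genes lie between -0.25 and 0.82.

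Lysozyme genes elsewhere in the genome were also read. Of 12 further genes of the lysozyme families looked for, 11 were on the array and 4 passed the filter. CG16799 was above background in all 4 channels, with ablated and control medians of 2447 and 1170 on replicate 1 and 1622 and 1248 on replicate 2. Its log2 ratios were 0.48 and 0.30 (0.39 ± 0.13). CG6429, also above background in every channel, read 2480 and 906 on replicate 1 and 1193 and 1055 on replicate 2, with ratios of 0.82 and 0.14 (0.48 ± 0.48). CG8492 stood at -0.0950 ± 0.63 with opposite signs, and CG14823 at -0.12 ± 0.14. Both channels of CG14823 were dimmer than their local background on replicate 2, so its lower reading rests on replicate 1. Higher on both arrays were 2 of the 4, against 24.5% of all tested genes, and 1 was lower on both, against 22.4%. Their median was 0.15. With the sign of replicate 2 turned, 0 were higher and 1 was lower on both, with a median of -0.00469. As labelled, limma called 0 of them. A difference between these genes and the cluster was not tested, since the cluster was chosen for its values.

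Peptidoglycan recognition proteins bind the same bacterial wall, and some of them, such as PGRP-SC1a, degrade it in the gut. Of 13 listed genes 6 were tested, 1 higher and 1 lower on both arrays, with a median of -0.0221 and 0 called. The lower one, PGRP-LC, the receptor that starts the immune deficiency pathway, stood at -0.88 ± 0.16, and its adjusted p from limma was 0.996. PGRP-SC1a stood at -0.11 ± 0.19, PGRP-SC2 at 0.0621 ± 0.0827 and PGRP-SA, a sensor of the Toll pathway, at 0.19 ± 0.46. Under their background limits were the ablated channel of PGRP-LC on replicate 2, the control channel of PGRP-SA on replicate 2 and both channels of PGRP-SC2 on replicate 1.

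Digestive enzymes serve here as markers of the midgut, where most of the cluster is known to be expressed. Of 41 trypsins, Jonah proteases, maltases, amylases and other enzymes, 30 were tested. Both arrays gave a higher reading for 10 of them and a lower one for 8, the median log2 ratio was -0.00493 and 0 were called. Mal-A3 and Mal-A4, maltases, stood at 0.56 ± 0.34 and -0.38 ± 0.0770, and thetaTry, a trypsin, at 0.52 ± 0.49. On replicate 2 Mal-A3 and thetaTry were under the background limit in both channels, and Mal-A4 in the ablated channel. Jon25Biii, a Jonah protease, was above background in ablated larvae on 1 array and in controls on neither. The bound computed for it was 1.13-fold higher in ablated larvae. That bound includes the ablated channel of replicate 2, which read 109 against a limit of 161, so it is not a safe minimum. The summed signal of the 30 probes over background was 134379 (ablated) and 61389 (control) on replicate 1 and 34265 and 39296 on replicate 2. For the 5 tested lysozymes it was 15456 and 28658 on replicate 1 and 5168 and 10583 on replicate 2. These sums are not normalized between dyes. The midgut list as a whole thus had a median near that of all genes. In whole larvae, fewer cells of a type and less RNA per cell cannot be told apart.

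The genes with ratios most like those of LysB were sought over the 2 arrays. The replicate 2 ratio of LysB has an ablated channel under its background limit and changes with the background step, so the distances and ranks hold only for the reported processing. By Euclidean distance between the pairs of log2 ratios, the nearest of the 5970 other genes were Sgs5 (0.329), CG32750 (0.349), Sgs8 (0.483), px (0.578) and Sgs3 (0.615). Sgs3, Sgs5 and Sgs8 encode glue proteins that fix the pupa to its substrate. On replicate 2 Sgs3 was not above background in either channel. LysD followed at a distance of 0.617, rank 6, while LysC was at rank 76, LysS at 160 and LysP at 1435. Of 10 listed salivary gland genes 7 were tested, 0 higher and 5 lower on both arrays, and the list median was -1.19 on the first and -1.84 on the second replicate. Sgs7 was lowest at -2.03 ± 1.18, followed by Sgs8 (-1.84 ± 0.49), Sgs5 (-1.78 ± 0.29) and Sgs3 (-1.56 ± 0.39). The ablated channel was under its background limit on replicate 2 for Sgs5 and Sgs7 and on replicate 1 for Sgs8. The sizes of these ratios are therefore not fixed. The summed signal of the 7 tested genes over background was 16981 (ablated) and 20832 (control) on replicate 1 and 5766 and 14548 on replicate 2. Sgs3, Sgs5, Sgs7 and Sgs8 were at least 2-fold lower on both arrays, as were LysB and LysD. The other tested salivary gland genes were not, and 2 of the 7 had opposite signs. The part of these markers in the lysozyme values was not tested. In the turned reading the median of the 7 was 0.28, and 1 was higher and 1 lower on both arrays.

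Markers of other tissues had list medians between -0.34 and 0.12. The 6 fat body genes had a median of 0.0526, with Fbp1, a storage protein receptor, at -0.70 ± 0.0242, the serum storage proteins Lsp1alpha at -0.48 ± 0.27 and Lsp2 at 0.36 ± 0.63, and Fbp2 at 0.20 ± 0.12. The 4 tested muscle genes had a median of 0.0784, with Mlc2 at 0.59 ± 0.61, wupA at 0.20 ± 0.36, Mhc at -0.0448 ± 1.80 and Act57B at -0.44 ± 0.26, and the 5 tested wing disc genes one of 0.12, with nub at 0.34 ± 0.28, en at 0.20 ± 0.16, wg at -0.23 ± 0.69 and the brighter probe of rn at -0.30 ± 0.91. The 3 tested blood cell genes had a median of -0.34, with the collagen gene Col4a1 at -0.65 ± 0.51, the peroxidasin gene Pxn at 0.36 ± 0.0433 and the scavenger receptor gene Sr-CI at -0.34 ± 0.0924. None was called by limma at an adjusted p of 0.05, which holds for all 5971 genes as labelled. Both channels were under their background limits on replicate 2 for Fbp1, Act57B, en, wg and Sr-CI. The same held on replicate 1 for Lsp2, Fbp2 and Mlc2. The control channel alone was under its limit on replicate 2 for Pxn and Mhc, and on replicate 1 for nub, en and rn. For rn so was the ablated channel alone on replicate 2. The means and SDs of all these genes thus rest partly on a ratio with a channel at background. A small SD, as for Fbp1, is then not agreement between 2 measured ratios.

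Across processing settings LysD was the steadiest of the 4 brighter members. Over 11 settings with the labelled direction and both arrays, its mean ran from -1.54 to -1.12 and it was lower on both arrays in all 11. LysB was also lower on both in 11, with an SD between arrays from 0.00897 to 3.18. LysC was lower on both arrays in 10 settings, with means from -1.20 to -0.73, and LysS in 9, with means from -1.05 to -0.62. LysP was lower on both in 6. LysE had opposite signs on the arrays in every setting. Aquantile and the mean over probes are among the 11 settings but add no check. They return the reported ratios by construction, since Aquantile leaves ratios unchanged and each member has 1 probe. In the authors' deposited table LysD stood at -0.979 and -1.261 and LysB at -1.284 and -5.781.

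**Figure D4:**
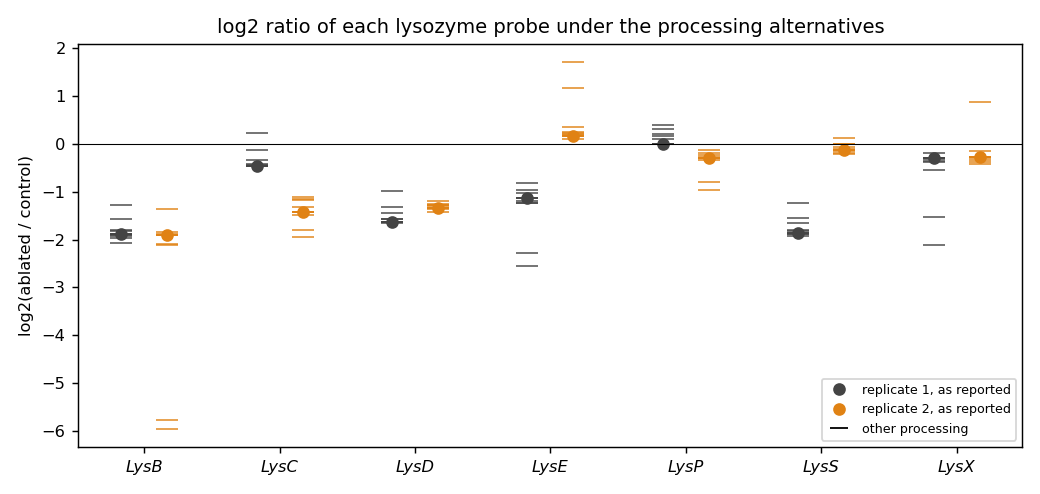
Log2 ratio of ablated to control larvae for each lysozyme probe on replicate 1 (grey) and replicate 2 (orange), as reported (points) and under the other processing settings with the labelled direction (dashes). LysD keeps a narrow range on both arrays, and LysB on replicate 2 ranges from -5.95 to -1.37.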

How the data were processed

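Per the file headers, GenePix Pro 7.1.25 quantified the scans. The deposited intensity values used are medians of spot and local background pixels, in the 635 nm channel for Cy5 and the 532 nm channel for Cy3. Also deposited is the percent of a spot's pixels that are saturated or exceed background. The authors also deposited a table of log2 ratios; 89.5% (replicate 1) and 86.6% (replicate 2) of its gene spots lay within 0.05 of the log2 ratio of background-subtracted medians, ablated over control, with medians of 0.498 and -0.115. Further steps of theirs are not given in the sources used here.

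In limma 3.58.1 (R 4.3.3), normexp with an offset of 50 corrected the background and loess normalized the ratios of each array, control spots having weight 0, and replicate 2 was turned by its dyes. Probe names were matched to symbols by locus tag (12687 probes) or synonym (1218), and 688 kept the file's name; LysC matched by synonym. The brightest probe stood for a gene. The two-sided test of each mean against 0 used lmFit and eBayes, with Benjamini-Hochberg adjustment over 5971 genes; the test was tried on simulated data. A bound was computed where a group was below background on both arrays, from channel values after loess and Aquantile, against the lowest signal above background on each array. The p-values rest on each gene's spread between 2 arrays, which eBayes moderates towards the spread over all genes. That spread may be technical, and the number of arrays limits the precision.

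The members and lists were chosen with earlier results of these data known. The named genes were all members, further lysozymes above background in at least 1 channel, the cluster's neighbours with the 3 nearest tested genes on either side, the 4 smallest p in each further list, the 5 genes nearest to LysB, and egr, rn and Tb. Alternatives were other background corrections, print-tip loess, median centring, Aquantile, no or a stricter filter, pixel means, the mean over probes, the authors' values, a trend in eBayes, an adjusted p of 0.1, each array left out and replicate 2 with its sign turned. Comparisons of protein and promoter sequences were not run here.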

Additional observations from a re-analysis of the deposited data

How the results depend on the processing

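As reported, 5 of 5 tested members were lower on both arrays. The number was 4 of 5 with no background correction and with pixel means. It was 3 of 5 with print-tip loess, with median centring and in the authors' log2 ratios. The stricter filter, which leaves LysD and LysS, gave 2 of 2, and turning the sign of replicate 2 gave 0 by construction. With either array left out the number was 5 of 5 on the other, a range from 5 to 5. Median centring and the authors' values moved the median of all genes to 0.136 and 0.312, and relative to each array's median 5 of 5 members were lower there. Relative to the medians the number stayed at 3 of 5 with print-tip loess. It stayed at 4 of 5 with no background correction and with pixel means. Limma called 0 genes under every setting run with the labelled direction, and 515 with the sign turned. With the sign turned LysB read 0.00634, LysC 0.483 and LysP 0.149; LysP also read 0.0119 with print-tip loess and 0.00963 with pixel means, and LysE 0.171 without replicate 1 (-1.12 without replicate 2). The cause of these changes was not tested. LysX has no value on replicate 2 with plain subtraction, since both channels were dimmer than background. No paired analysis was possible because each ratio already pairs the ablated and control RNA of 1 array. Of the 4 brighter members, LysB and LysC had an ablated channel under the background limit on replicate 2, so signal over background limits their ratios there.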
